A study of Homo sapiens with 2 samples.

Results

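NFE2L1 and 5 proteasome subunits (PSMA6, PSMA2, PSMB2, PSMC4 and PSMD12) carried 9 of the 2054 sites at which the RNA-binding protein YBX1 was crosslinked to RNA in HEK293, a line of human embryonic kidney cells. A site was given to a gene when its midpoint lay inside the gene's GENCODE span in hg38, on the strand of the gene. The study names NFE2L1 and PSMA6 as examples of genes that YBX1 binds and whose expression changed after its knockdown. That knockdown was made in medulloblastoma cell lines, so binding and expression were measured in different cells. Gene Ontology places both genes in inflammatory response and apoptosis, and the study allows that such genes may act beside CBX5, the target it describes. The other 4 subunits were selected on the list itself, because they carry a site. All members were thus chosen through their sites. That a member is bound is therefore no result. For scale, 1366 of 20046 protein-coding genes, or 6.81%, held at least 1 site by the same rule, and nothing is read from the 6 members beside that share.

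PAR-CLIP was used to map the bound RNA. In this assay cells take up 4-thiouridine, a uridine analog that enters nascent transcripts and is crosslinked by long-wavelength UV light to the protein that holds it. The sample labels give 2 replicates of 1 condition, HEK293 with a YBX1 antibody (D2A11), and no control or knockdown. The methods instead name the T-REx HEK293 Flp-In line, stably overexpressing YBX1 with FLAG and HA tags, and a pulldown through the FLAG tag, so the sites come from cells with added YBX1 if the methods hold. A single list covers both replicates, which leaves no measure of how far they differed. Per site it holds a position, a strand, a gene name and an annotation class. Reads and conversions are not in it, so depth is unknown and a strong site cannot be told from a weak one.

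The proteasome degrades proteins tagged with ubiquitin. Its barrel-shaped core is made of outer rings of alpha subunits (the PSMA genes) and inner rings of beta subunits (the PSMB genes). A regulatory particle of ATPases (the PSMC genes) and non-ATPase subunits (the PSMD genes) binds the ends of the core, where it captures, unfolds and feeds in the substrates. NFE2L1 (also NRF1 or TCF11) is a transcription factor of the cap'n'collar family that sits in the membrane of the endoplasmic reticulum and is normally degraded quickly. When proteasome activity falls, it is processed, reaches the nucleus and switches on the genes of proteasome subunits. YBX1 has a cold-shock domain, packages mRNAs in the cytoplasm and binds RNA rich in C and A.

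The sequences of the 9 sites are shown because neither their base content nor their ends entered the choice of the genes. They were read from hg38 on the RNA strand, 5′ to 3′, and capitals mark 4 tetramers that recur among the listed sites, namely CAAC with the AACA that overlaps it by 3 bases, then AACU, and also CAUC. They were chosen with earlier results of these data known. For NFE2L1 and PSMB2 the site nearer the 5′ end of the mRNA is given first, and for PSMA6 the intronic site.
NFE2L1, first coding site: ccuugccccCAACAcuccCAUCaaucag
NFE2L1, second coding site: ccaCAACcacacauaCAACAug
PSMA6, intronic site: gugcgcaaugauagugc
PSMA6, 3′UTR site: uAACAACAaacCAACAUCaug
PSMA2, 3′UTR site: acacuuauaaauccuaauaAACUg
PSMB2, coding site: auAACAuuuccuuccccaAACAg
PSMB2, 3′UTR site: cuccaaauCAACUcauuccuag
PSMC4, coding site: acaauuucuggaggcuguggaucag
PSMD12, 3′UTR site: ucacacuaauAACAUCAACAUCug
In 7 of the 9 sites a run of 20 to 23 bases held no G, whereas the longest such run was 4 nt in the intronic PSMA6 site and 9 nt in the PSMC4 site. Each of the 9 sequences had 1 exact place in hg38.

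Both NFE2L1 (ENSG00000082641) sites lay in the coding sequence. They were at chr17:48058372-48058399 and chr17:48059038-48059059, on the plus strand and in exon 6 of 6 of the MANE Select transcript, the reference transcript of the gene. The first site was 28 nt wide and covered codons 350 to 359 of 773 (the stop codon counted), and the second was 22 nt wide and covered codons 572 to 579. Their midpoints were 663 nt apart, and 582 nt of coding sequence followed the second. No site was listed in the NFE2L1 3′UTR of 1904 nt. The first site was coding in 9 annotated transcripts and the second in 8, and neither was in a 3′UTR, noncoding exon or intron of any.

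The bases around the NFE2L1 sites show how the sites stand in their exon. Below, the site is in capitals with 30 nt of mRNA on either side, nt 1636 to 1723 and nt 2302 to 2383 of the mRNA.
NFE2L1, around the first site: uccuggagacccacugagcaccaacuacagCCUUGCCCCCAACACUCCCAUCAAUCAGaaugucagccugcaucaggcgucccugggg
NFE2L1, around the second site: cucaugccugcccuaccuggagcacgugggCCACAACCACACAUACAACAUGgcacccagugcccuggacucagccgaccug
The first site held 2 G, against 16 in its 60 flanking bases. The second held 1 G, its last base, against 17 in 60. The enzyme that trimmed the bound RNA, RNase T1, cuts after G, and the median over listed sites up to 100 nt wide was 1 G. This contrast is therefore partly built into the assay, and so is part of the gap in C and A given next. C and A made up 75.0% of the first site and 86.4% of the second, the highest share of the 9. An equally wide window of the same exon, placed at a distance of 100 nt, held 57.1% C and A beside the first site, and the mean of 2 such windows was 52.3% beside the second. Each site had few bases at which 4-thiouridine can sit, with 5 U in the first and 2 in the second.

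Of the alpha subunits of the core, PSMA6 and PSMA2 were listed. PSMA6 had 2 entries of unlike kind, 1860 nt apart in the genome on the plus strand. The 3′UTR site (chr14:35317358-35317378, 21 nt) began 52 nt after the stop codon in the last exon, in a 3′UTR of only 187 nt. C and A made up 81.0% of it, and it held 3 of the 4 tetramers. The authors' annotation calls this site non-coding, while GENCODE places it in the 3′UTR of 8 PSMA6 transcripts and in a noncoding exon of 1. A readthrough gene (ENSG00000258790) shares this stretch of 3′UTR, so reads of its transcripts cannot be told apart from those of PSMA6 there.

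The other PSMA6 entry (chr14:35315500-35315516, 17 nt) was intronic in the MANE Select transcript and in 9 annotated transcripts in all, and exonic only in the noncoding PSMA6-205. It differed from the other members in several measured ways. C and A were 41.2% of its bases, it held 6 G and none of the 4 tetramers, and its longest run without G was 4 nt. RNase T1, the enzyme used to trim the bound RNA, cuts after G, yet the base before this site is A and its last base is C. Neither end was at a G for 146 of the 2049 listed sites up to 100 nt wide (7.13%), but for only this one of the 9. With 1 mismatch allowed, its 17 bases matched 9 further places in the genome, against 0 or 1 for each of the other 8 sites. Whether reads from such places contributed to the entry was not tested.

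PSMA2 carried 1 site (chr7:42917421-42917444, minus strand, 24 nt) in the 3′UTR, beginning 130 nt after the stop codon. It held 11 A, 7 U and 5 C, so that C and A came to 66.7%, and its single tetramer was AACU. The site was in the 3′UTR of 4 PSMA2 transcripts and in noncoding exons of 5. It also overlaps a readthrough gene (ENSG00000256646).

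PSMB2, a beta subunit of the core without a catalytic site of its own, was the only subunit with 2 sites in its mature mRNA. The first (chr1:35603276-35603298, minus strand, 23 nt) covered codons 192 to 199 of 202 and ended 9 nt before the end of the coding sequence. The second (chr1:35600679-35600700, minus strand, 22 nt) lay far down the 3′UTR, from 2567 nt after the stop codon, in a 3′UTR of 3726 nt. They were 2598 nt apart and much alike in base content, with 69.6% and 68.2% C and A and 6 U each. Windows 100 nt away held 47.8% at the first and 47.7% at the second.

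Among the regulatory particle genes, PSMC4, an ATPase of its base, and PSMD12, a subunit of its lid, had 1 site each. The PSMC4 site (chr19:39972503-39972527, plus strand, 25 nt) covered codons 90 to 98 of 419, in exon 3 of 11, and was the only member site in an mRNA that was not in the last exon. It held 8 G, the most of the 9, against 15 in its 60 flanking bases. C and A made up 40.0% of it, the same as in its window, and no tetramer was found. Below, the site, nt 308 to 332 of the mRNA, is in capitals with 30 nt on either side.
PSMC4, around the site: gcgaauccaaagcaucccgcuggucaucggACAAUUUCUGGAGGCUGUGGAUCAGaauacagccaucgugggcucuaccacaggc
Both of its ends are at a G all the same. The PSMD12 site (chr17:67339432-67339455, minus strand, 24 nt) began 1388 nt after the stop codon in a 3′UTR of 2927 nt. C and A came to 70.8%, and all tetramers but AACU were present. The authors' annotation calls it intergenic, and in GENCODE it is in the 3′UTR of 1 transcript, the MANE Select one.

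**Figure D1:**
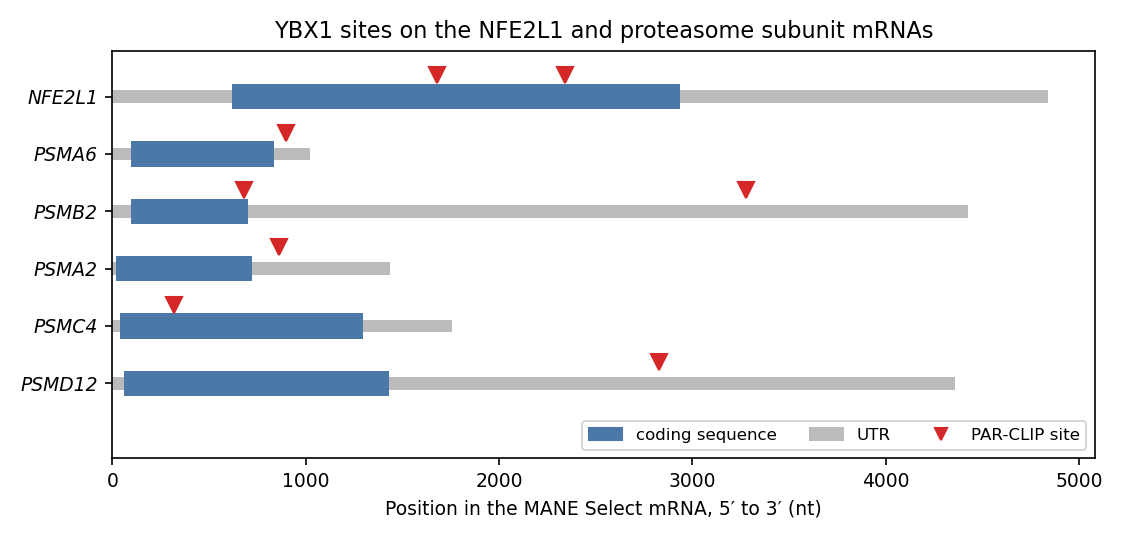
Positions of the 8 member sites that lie in mature mRNA (triangles) along the MANE Select transcript of each gene, in nt from the 5′ end, with the coding sequence as a thick bar and the UTRs as thin bars. Both NFE2L1 sites sit in the coding sequence, PSMB2 has 1 site at the end of its coding sequence and 1 in the 3′UTR, and the PSMA6, PSMA2 and PSMD12 sites sit in 3′UTRs. The intronic PSMA6 entry is not drawn.

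By class, 4 of the 9 sites were in coding exons, 4 in 3′UTRs and 1 in an exon of a noncoding transcript (the PSMA6 intron). Over all sites of the list, GENCODE placed 55.4% in 3′UTRs, 23.6% in coding exons and 5.94% in noncoding exons, with the 3′UTR taking precedence. With coding exons first, the list had 47.2% in 3′UTRs and 31.7% in coding exons, and the member counts were the same. The authors' annotation gave 35.3% 3′UTR and 27.4% exon over the list. For the members, the authors' own classes gave 4 exon, 2 3′UTR, 1 intron, 1 non-coding and 1 intergenic site. Both classifications thus have as many coding sites, while the PSMA6 and PSMD12 3′UTR sites appear only in GENCODE. With 9 sites, these shares describe the members and are too few to set against the list.

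Across the 9 sites, C and A made up 66.5% ± 16 (SD over sites), from 40.0% in PSMC4 to 86.4% in the second NFE2L1 site. Over the 2049 listed sites up to 100 nt wide it was 60.4% ± 12.0, with the middle 50% between 54.2% and 68.2%. The member sites fell on either side of that range. Both NFE2L1 sites, the PSMA6 3′UTR site, the PSMB2 coding site and the PSMD12 site were above its upper edge, the PSMC4 and intronic PSMA6 sites were below its lower edge, and the PSMA2 and PSMB2 3′UTR sites were within it (68.2% is the upper edge itself). The median share of U was 25.0% in the members and 31.6% over the list, and the median number of G was 1 in both. Widths were alike, with medians of 23 and 22 nt.

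For 7 of the 9 sites the exon held such a window, equally wide and at a distance of 100 nt. The excess of the site over its windows was 18.5 ± 10.2 percentage points of C and A (SD over sites, n = 7). It was largest at the second NFE2L1 site (34.1), between 14.6 and 21.7 at 5 sites, and 0.0 at PSMC4. Over the 1331 sites of the list with such windows the excess was 12.7 ± 13.2 points (median 13.0). There 81.5% of sites exceeded their windows, against 6 of 7 here. With the share of C and A taken among A, C and U alone, so that G does not enter, the excess was 4.62 ± 7.69 points over the same 7 sites.

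**Figure D2:**
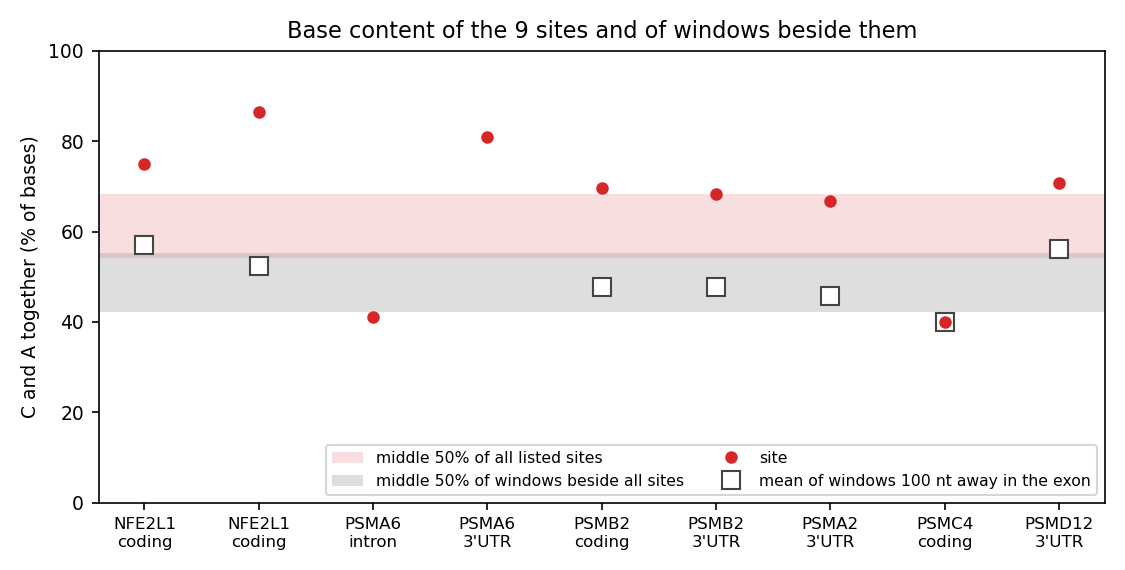
Share of C and A in each of the 9 member sites (filled circles) and the mean of equally wide windows at a distance of 100 nt in its exon (open squares), in percent of bases, over bands for the middle 50% of all listed sites and of the windows beside them. Of the 7 sites with windows, 6 lie above them and the PSMC4 site lies on its window at 40.0%. The PSMA6 sites have no such window.

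At least 1 of the 4 tetramers was found in 7 of the 9 sites, against 65.3% of all listed sites, 23.2% of 2375 windows beside all sites and 1 of 11 windows beside the members. The tetramers recur among these same sites, were chosen with earlier results known and hold no G. Their higher rate in sites than in windows is therefore no result. CAAC was in 5 member sites (26.6% of all sites) and so was AACA (30.9%), in part at the same place, while 3 sites held CAUC (25.0%) and 2 held AACU (28.2%). At least 3 different tetramers were held by the first NFE2L1 site, the PSMA6 3′UTR site and the PSMD12 site, against 11.6% of all listed sites. G was the last base of 8 of the 9 sites (87.6% of the list) and the base before 8 of the 9 (79.2%). Site ends were read so that the G left by RNase T1 lies at them, so these shares are partly set by that choice.

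Some of these letters recur at sites of other genes. The longest run that the PSMA6 3′UTR site shares with another listed site was 14 nt, with a site in the 3′UTR of TOP1 (DNA topoisomerase I), and that of the PSMD12 site was 13 nt, with a site in the 3′UTR of DYNC1H1 (the dynein heavy chain).
PSMA6 and TOP1, shared run: aacaaaccaacauc
PSMD12 and DYNC1H1, shared run: auaacaucaacau
The second NFE2L1 site shared 11 nt with a coding site of MATR3, an RNA-binding protein of the nuclear matrix, and the PSMB2 and PSMA2 sites 11 nt each with 3′UTR sites of HMGA1, GRPEL1 and GUK1. The first NFE2L1 site shared 10 nt with the noncoding RNA SLC16A1-AS1, the intronic PSMA6 site 10 nt with an intergenic site, and the PSMC4 site under 10 nt with any.

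NFE2L1 belonged to a small class among genes with as many sites. Of 199 genes with exactly 2 sites, 104 had both in the 3′UTR, 54 had 1 in the coding sequence and 1 in the 3′UTR as PSMB2 did, and 22 had both in coding exons. A site in the 3′UTR of any transcript counted as 3′UTR, a rule that lowers the coding counts. The spacing along 1 transcript could be measured for 20 of these 22. Nearest to the 663 nt of NFE2L1 were CCNI with 744 nt, GNAI3 with 539 nt, MT-CO3 with 531 nt, RBM12 with 441 nt and RBBP7 with 412 nt. Spacing is the only measure used in this ordering.

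Sites per kb of mRNA are given as a description only. With 1 or 2 exonic sites in every member, the value is set largely by mRNA length, so its spread is no result. PSMA6 had 0.978 exonic sites per kb, PSMA2 0.697, PSMC4 0.57, PSMB2 0.452, NFE2L1 0.413 and PSMD12 0.23, while the middle 50% of 1187 bound genes lay between 0.191 and 0.5. Each of these rests on 1 or 2 sites. The exact Poisson interval (95%) of a count of 1 is 0.0253 to 5.57 and that of 2 is 0.242 to 7.22, and since these overlap the 6 genes are not ranked. Both intervals cover counting error only.

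Most proteasome subunit genes were without a listed site. Of the 38 subunits, 33 had none and 5 were bound (13.2%). Beside the 6.81% of all protein-coding genes nothing is read from this count. Of the 5, 4 were selected for carrying a site, and PSMA6 was named by the study as bound. Bound were 2 of 8 alpha subunits, 1 of 11 beta subunits, 1 of 6 ATPases and 1 of 13 non-ATPases. A count of 0 in a gene allows up to 3 sites expected at this depth, so a subunit without a site is not shown to be unbound. The 38 include PSMA8 and PSMB8 to PSMB11, and no subunit was left out for low expression. The level of each mRNA in HEK293 cells was not used here, and low mRNA cannot be told apart from weak binding.

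Among the genes that build or serve the proteasome, 1 of 9 assembly chaperones and 1 of 9 activators, inhibitors and associated enzymes were listed. PSMG2, which helps to assemble the alpha ring, had 1 site (chr18:12720657-12720676), in codons 185 to 192 of the MANE Select transcript and in the 3′UTR of 4 others. UBE3C, a ubiquitin ligase that works at the proteasome, had 1 site, in its coding sequence.
PSMG2, site: uaucacaaaAACAcucuaug
With these, 7 of 56 proteasome genes were bound (12.5%), beside 6.81% of all protein-coding genes, and 5 of the 7 are the subunits described above, so nothing is read from this share either.

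Of 19 genes that process, modify or partner NFE2L1 or belong to its family, VCP, SEL1L and OGT were bound (15.8%, Wilson interval 5.52% to 37.6%), with 1 site each, beside 6.81% of all protein-coding genes. Of the 14 with an mRNA over 3000 nt, 3 were bound, beside 9.29% of all genes of that length, and of the 5 shorter ones 0. With 3 bound genes, nothing is read from either share. VCP, the ATPase that pulls NFE2L1 out of the membrane, had its site in a stretch that is coding in 10 of its transcripts, the MANE Select one among them, and 3′UTR in 3, so that it counts as a 3′UTR site where that class takes precedence. SEL1L, the adaptor of a ubiquitin ligase of the same membrane, had a 3′UTR site (chr14:81475681-81475698). OGT, which attaches N-acetylglucosamine to proteins, had a 3′UTR site (chrX:71574872-71574892).
SEL1L, site: uucacauaauuacacacg
OGT, site: cauuaaauaaccuuCAUCaag
No site was listed in NGLY1 and DDI2, which remove the sugars of NFE2L1 and cleave it, in the small MAF partners MAFF, MAFG and MAFK, or in NFE2L2 on its own strand.

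Bound genes had the longer median mRNA over all genes, while among the subunits this differed by group. The median mRNA was 3943 nt in bound protein-coding genes and 2885 nt in all, and 9.29% of genes with an mRNA over 3000 nt were bound against 4.53% of the rest. Of the 38 subunits, 7 had an mRNA over 3000 nt and 2 of these were bound (PSMB2 with 4426 nt and PSMD12 with 4356 nt), while 3 of the 31 shorter ones were bound. The median mRNA was 1754 nt in the 5 bound subunits and 1379 nt in the 33 others. PSMB2 and PSMD12 were longer than the medians of the other beta subunits (980.5 nt) and non-ATPases (1578 nt). In the 2 bound alpha subunits the median was 1228 nt, against 1494 nt without a site. The PSMC4 mRNA of 1754 nt was shorter than the median of 2163 nt of the other ATPases. PSMA4 (4378 nt), PSMC1 (4390 nt), PSMD11 (3850 nt) and PSMA5 (3815 nt) had no site. The median 3′UTR of the 5 bound subunits was 713 nt and that of the 33 others 242 nt. The order was again the reverse in the alpha subunits (450 nt against 630 nt) and the ATPases (459 nt against 973 nt). PSMA4 reached 3473 nt without a site. Each group held only 1 or 2 bound subunits, and these were chosen through their sites. Nothing is therefore read from these orders about length and binding.

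Stretches without G were then counted, since RNase T1 cuts after G and 7 of the 9 sites hold one. Runs of at least 16 bases without G, followed by a G, numbered 38 in the PSMD12 mRNA, 35 in PSMB2, 21 in NFE2L1, 7 in PSMA2, 6 in PSMC4 and 4 in PSMA6, or 111 in all, and 7 of the 111 lay in a listed site. The runs in sites had a median of 73.9% C and A, and the 104 others 61.2%. That pooled gap mixes genes, since PSMB2 gave 33 of the others and PSMD12 37, with medians of 57.9% and 60.0%. In PSMB2 the runs in sites averaged 72.1%, and 4 others were higher. In PSMD12 the run in the site had 73.9%, and 3 others were higher. In NFE2L1 the runs in sites averaged 88.4%, against a median of 75.0% in its 19 others. Of these, 3 were higher, up to 94.7%. In PSMA6 the single run in a site had 85.0%. The 3 others there had a median of 76.2%, and none exceeded 78.3%. In PSMA2 the run in the site (69.6%) was at the median of the others (69.9%).

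The subunits without a site had a median of 4 such runs per mRNA and the 5 bound ones 4 to 38, and 1 of the 33 had none. PSMD11 had 29 runs, PSMA4 26, PSMA5 23 and PSMC1 15, all without a site, so that the long unlisted subunits overlapped with the members in this count. The median share of C and A in the 215 runs of the unlisted subunits was 63.6%.

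**Figure D3:**
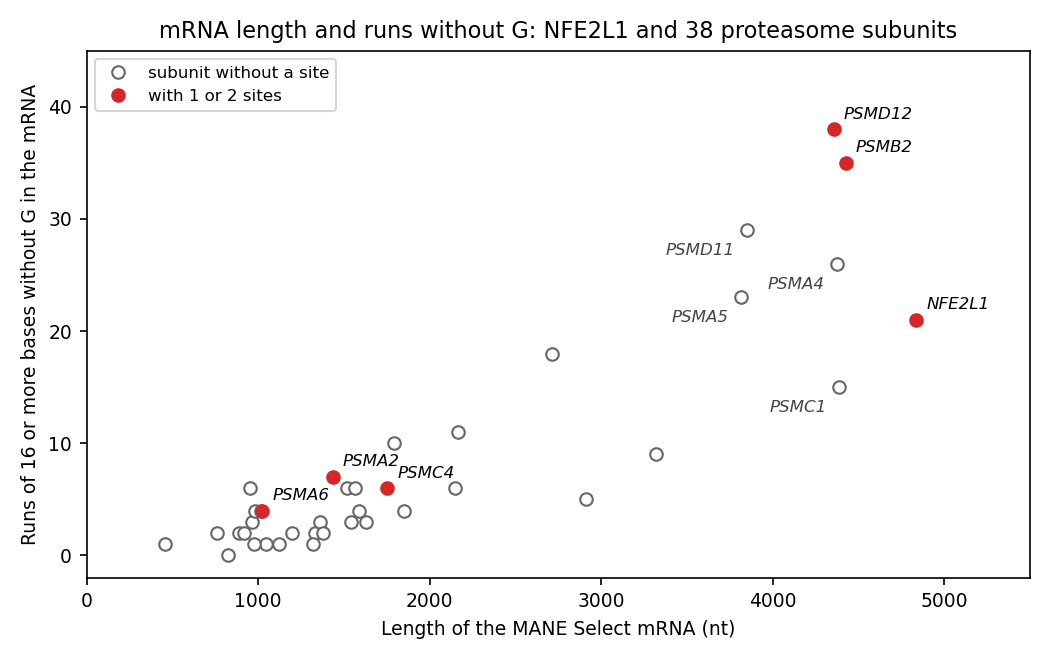
Length of the MANE Select mRNA in nt against the number of runs of 16 or more bases without G in it, for NFE2L1 and the 38 proteasome subunits, with genes that carry 1 or 2 sites filled and subunits without a site open. The 3 bound genes with the longest mRNAs (PSMB2, PSMD12 and NFE2L1) have 21 to 38 runs, and PSMD11, PSMA4 and PSMA5, which have no site, have 23 to 29.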

How the data were processed

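PAR-CLIP of YBX1 was performed in HEK293 cells in 2 replicates. The authors used cutadapt (version 1.4.1) for trimming, PARA-suite for alignment to GRCh38 and its transcripts, BMix with defaults to call sites by strand, and HOMER for annotation. The deposited list pools both replicates and gives positions, with no other measured value. For the values above, the first base was the listed start and the last base 1 before the listed end, since the G left by RNase T1 lies there on both strands. Genes, classes (3′UTR before coding exon, by midpoint and strand) and MANE Select transcripts were from GENCODE release 44. Base content left out 5 sites wider than 100 nt. Python 3.11.15, pysam 0.24.0 and Biopython 1.88 were used, and the code was tested on simulated data. No test between groups was made. Every member and every bound gene of the lists is named, with up to 5 genes closest to NFE2L1 in site spacing and, per member site, the site with the longest shared run (at least 10 nt). Members and gene lists were chosen with earlier results of these data known. Runs without G were added after seeing the data, as were the sequence flanks. Some sequences and the results that need them are not reported here. The unlisted subunits named for length were chosen after their values were seen. Wilson and Poisson intervals cover counting error only.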

Additional observations from a re-analysis of the deposited data

How the results depend on the processing

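Of 39 values recomputed under other settings, 34 moved by less than 1 SD over sites or, for counts, less than 1.5 times. Some of the 34 could not move. Merging nearby sites leaves counts of bound genes as they are, and keeping only sequences with 1 exact place in hg38 removed no site. With only sites wider than the median of 22 nt, 5 of the 9 member sites, 2 of the 4 3′UTR sites and 0 of the 3 bound genes of the NFE2L1 pathway were left. The authors' classes gave 2 3′UTR sites. Among A, C and U alone, the excess of C and A over windows was 4.62 points in place of 18.5, and after widening every site by 10 nt at both ends the excess came to 10 points (n = 6). Without the intronic PSMA6 entry, a setting added after seeing the data, C and A averaged 69.7%. No paired analysis was possible because both replicates were pooled into 1 list, and for the same reason no replicate could be left out. The depth behind each site is unknown.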

Other observations

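With strand ignored, NFE2L2, a relative of NFE2L1 in the cap'n'collar family, would count as bound, which brings the pathway list to 4 of 19 genes. The sites there lie in the 3′UTR of HNRNPA3, on the opposite strand and inside the span of NFE2L2. By the authors' gene names, PSME1, a subunit of a proteasome activator, would also count, which brings the proteasome lists to 8 of 56 genes. That site lies past the end of PSME1 and on the opposite strand.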
